A study of Mus musculus with 6 samples.

Results

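The genes described here encode the proteasome, the protease that degrades ubiquitin-tagged proteins, together with its activators, its inhibitor and its assembly chaperones. They were chosen by name, as every non-control array sequence whose gene name begins with Psma, Psmb, Psmc, Psmd, Psme, Psmf or Psmg and a digit. The array carried 61 such sequences of 49 genes. A sequence was kept when the scanner software marked it well above background on all 3 arrays of a group, which left 59 sequences of 47 genes, out of 26587 sequences and 19575 genes or other named features kept on the whole array. One of the 47, Psmc3ip, matches the letters of the rule only, since it encodes a partner of the meiotic recombinases, and it is left out of every count below. This left 46 proteasome genes with 58 sequences.

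The cells were C57BL/6 mouse macrophages derived from bone marrow, given 100 µM ADP for 6 h (3 samples, ADP 1 to 3) or a control treatment for the same time (3 samples, control 1 to 3). Both groups had been differentiated for a week in RPMI with serum and L929-conditioned medium, a source of the macrophage growth factor M-CSF, and what the control treatment contained is not detailed in the labels. Samples are described as independent experiments with different donor animals. RNA of each sample was labelled with Cy3 and hybridised to its own Agilent mouse array.

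The proteasome is built from a barrel-shaped core of alpha and beta rings, in which the beta subunits β1, β2 and β5 cut the substrate, and a cap that binds ubiquitin chains, unfolds the substrate with a ring of ATPases and feeds it into the core. Cells of the immune system can replace the cutting subunits with the interferon-inducible β1i, β2i and β5i, which changes the peptides made for presentation on MHC class I, and macrophages are among the cells that express them. Other activators, PA28αβ, PA28γ and PA200, can take the place of the cap.

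A level below is the log2 of a signal over its own array's 75th percentile, and a difference is the ADP mean minus the control mean of such levels. The 75th percentile of the signal lay between 455 and 549 on the 6 arrays, 50.3% to 51.9% of spots were well above background and no spot was saturated. The arrays came from 2 slides, and that percentile was 455 to 464 on slide 1 and 545 to 549 on slide 2. All 8 macrophage markers checked, among them Csf1r and Adgre1, were well above background on all 6 arrays. The summed signal of the 8, in multiples of the 75th percentile, was 870 to 1156 with ADP, against 694 to 902 in controls. Of the 8, 4 had a positive difference and 4 a negative one. The ADP arrays all lay above the controls for Cd14 (0.79), where 9.67% of all features did so. They all lay below for Mertk (-0.61), where 9.72% did. Of 7 neutrophil markers on the array, 5 were well above background on every array and Ngp on none. Their summed signal, in multiples of the 75th percentile, was 26.1 to 31.8 on the ADP arrays, against 22.6 to 24.4 on the control arrays. Most of that sum was S100a8, whose log2 level was 4.53, 4.67 and 4.82 with ADP, against 4.32, 4.45 and 4.29 in controls. Of 6 dendritic cell markers, 3 were well above background on every array, and Cd209a and Xcr1 on none. Dendritic cell markers summed to 36.9 to 159 with ADP and 36.9 to 139.8 in controls. Most of that sum was Siglech, at 5.19, 7.31 and 7.26 on ADP arrays 1 to 3. It read 5.48, 5.19 and 7.13 on control arrays 1 to 3, so the high values were those of slide 2. For T or NK cell markers the sum was 2.74 to 4.68 and 2.60 to 4.10, and for stromal markers 11.0 to 12.9 and 11.0 to 12.5. The part of other cell types in the results was not tested. Each slide was scanned together. Slide 1 carried ADP 1 and controls 1 and 2, and slide 2 carried ADP 2 and 3 and control 3. In RNA of whole cultures, fewer cells that express a gene and less RNA per cell cannot be told apart.

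No proteasome gene differed between ADP and control macrophages at an adjusted p under 0.05 (limma without a slide term, Benjamini-Hochberg over all features). With the slide as a block and trended and robust variances, 3 genes passed (Psme3, Psmd10 and Psmb10), as described further on. The differences without a slide term ran from -0.18 for the activator gene Psme1 to 0.38 for the activator gene Psme3. Without the slide term the count was 0 of 46 genes, where 0% of all features passed. At an unadjusted p under 0.05 the count was also 0, where 6.55% of all features were higher with ADP and 6.18% were lower, and the smallest adjusted p of a member was 0.472, that of the cap chaperone gene Psmd10. The 95% interval of the difference lay within 1.5-fold either way for 40 of the 46 genes, where 54.5% of all features met that bound. It lay within 2-fold for 45, where 16602 of all 19575 features did. Psme3 was the exception at 2-fold. The median standard error was 0.12 for the proteasome genes and 0.15 for all features, and with the slide as a block it was 0.08 for the proteasome genes.

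Of the 46 genes, 36 had a positive difference and 10 a negative one, and the median was 0.08, with 0.04 under quantile normalization, 0.03 with the slide as a block, 0.04 without control 2 and -0.02 within slide 2. In the unscaled value table it was 0.16, where the median of all features was 0.08. Over all features 50.8% were above 0 and the median was 0.0044. The 3 ADP arrays all lay above the 3 control arrays for 5 genes (Psmb5, Psmb3, Psmc1, Psmd11 and Psmd10), where 9.67% of all features did so. They all lay below for 2 genes (Psme1 and Psmg1), where 9.72% of all features did. As shares of the 46, these were 10.9% and 4.35%. Counted together, 7 genes (15.2%) had no overlap, where 19.4% of all features had none. With arrays scaled by their median it was 2 genes, where 15.5% of all features had no overlap. It was 21 without control 3, where 37.0% of all features had none, and 15 without ADP 1, where 37.8% had none, since fewer arrays separate more often.

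**Figure D1:**
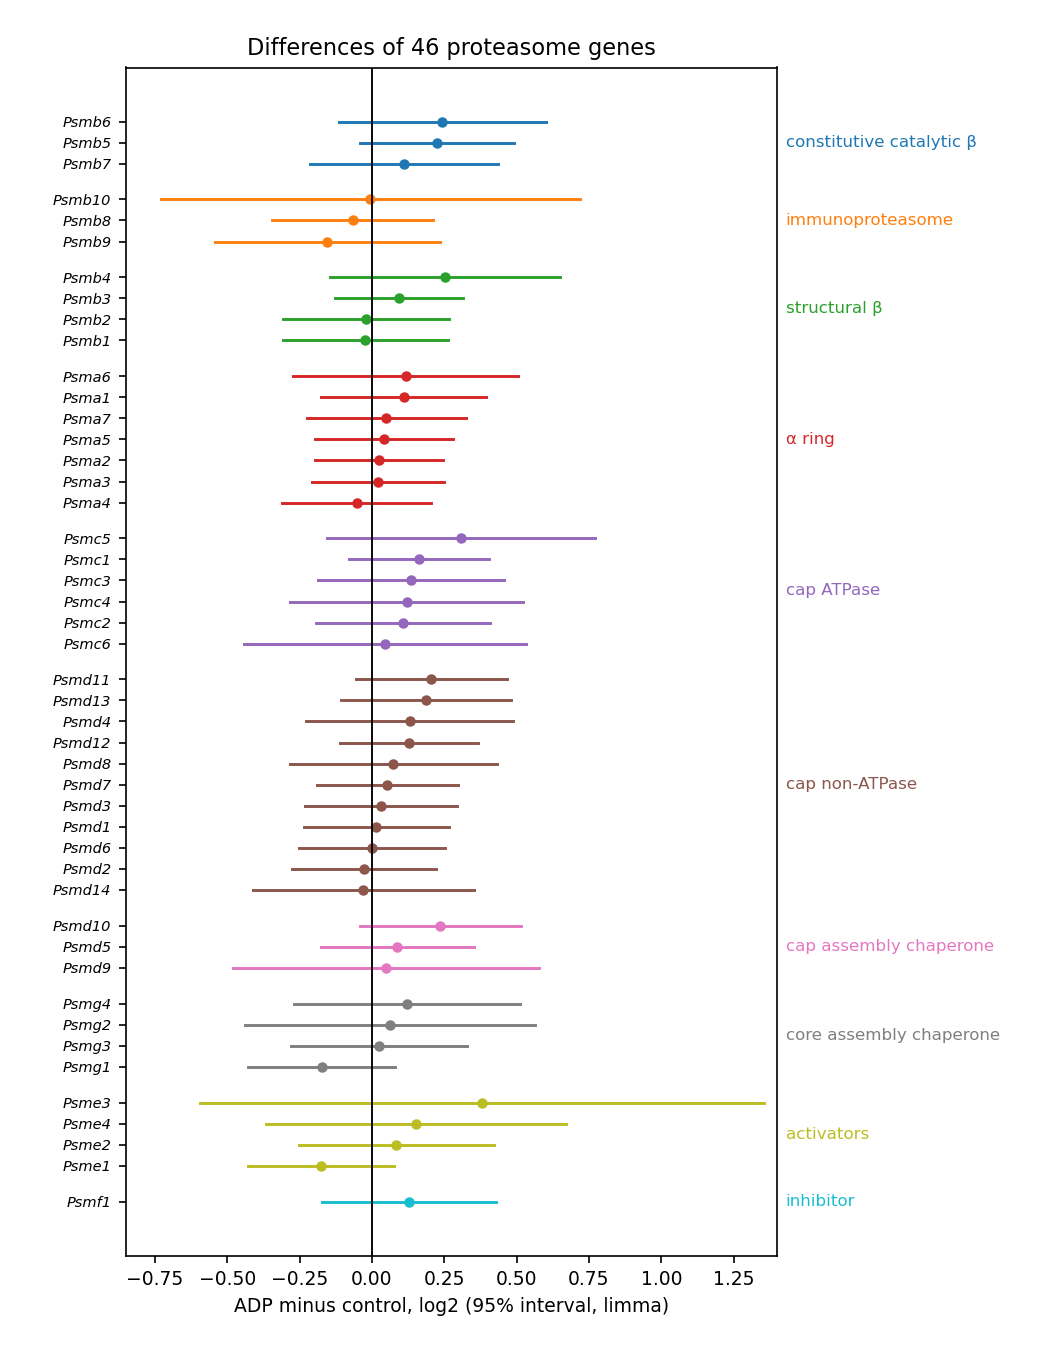
Each point is the log2 difference, ADP minus control, of a proteasome gene, with its 95% interval from limma (3 arrays per group), grouped by role. All 46 intervals include 0, and the points lie between -0.18 (Psme1) and 0.38 (Psme3).

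The 3 constitutive catalytic subunits all had positive differences, with a median of 0.23. Psmb5 encodes β5, the chymotrypsin-like subunit that proteasome inhibitor drugs bind most strongly. It read 7.76, 7.86 and 8.04 on ADP arrays 1 to 3, against 7.65, 7.67 and 7.67 on control arrays 1 to 3. The groups did not overlap, and the controls lay within a few hundredths of each other. The difference was 0.23 ± 0.11 (SE, n = 3 each), or 1.17-fold, with an adjusted p of 0.474 in limma, and it was 0.10 within slide 1, 0.29 within slide 2 and 0.08 under quantile normalization. Psmb6 encodes β1, the caspase-like subunit. It read 7.09, 7.37 and 7.53 with ADP, against 7.01, 7.00 and 7.25 in controls, and the groups overlapped because control 3 lay above ADP 1. Its difference was 0.24 ± 0.15 (adjusted p = 0.582, limma), with 0.08 and 0.21 within slides 1 and 2. Psmb7, the trypsin-like β2, read 4.10, 4.07 and 4.22 with ADP, against 3.95, 3.85 and 4.25 in controls. Control 3 was the highest of the 6 arrays, the difference was 0.11 ± 0.14 (adjusted p = 0.784, limma), and its sign turned between slides 1 and 2, at 0.20 and -0.11.

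Psmb5 was measured by a pair of probes, and a further probe reads its immunoproteasome counterpart Psmb8. The sequences are shown because one Psmb5 probe and the Psmb8 probe read the same stretch of these related genes. Set side by side without gaps, the 2 probes share 31 of 50 bases, and the longest run in common is 8 bases. Capitals mark the shared bases, and both sequences are from the deposited files, 5′ to 3′, with positions on mouse build mm9 (Psmb5 probe chr14:55233161-55233220, minus strand; Psmb8 probe chr17:34337771-34337830, plus strand).
Psmb5 probe: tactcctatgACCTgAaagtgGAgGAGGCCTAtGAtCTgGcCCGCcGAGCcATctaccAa
Psmb8 probe: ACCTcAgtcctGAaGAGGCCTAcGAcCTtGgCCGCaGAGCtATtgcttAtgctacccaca
The Psmb5 probe shown here read 5.67, 5.59 and 5.79 with ADP, against 5.38, 5.37 and 5.53 in controls, a difference of 0.25 ± 0.11 with no overlap between groups. The other Psmb5 probe (chr14:55232957-55233016), whose values were given first, shares 21 of 57 bases with the Psmb8 probe at best. Both Psmb5 probes therefore gave a difference of the same sign and nearly the same size, while that of the Psmb8 probe was negative.

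The immunoproteasome genes all had differences below 0, with a median of -0.07 that was 0.01 in the unscaled value table and 0.0047 without control 3. Psmb8, which encodes β5i, read 5.25, 5.05 and 5.02 with ADP, against 5.19, 5.07 and 5.27 in controls. The groups overlapped throughout, with ADP 1 next to control 3. The difference was -0.07 ± 0.12 (SE, adjusted p = 0.853, limma), with a 95% interval of -0.34 to 0.21. It was 0.12 within slide 1 and -0.23 within slide 2. Psmb9, β1i, read 3.89, 4.05 and 3.99 with ADP, against 4.05, 3.90 and 4.45 in controls. Control 3 stood highest, and without it the difference of -0.15 ± 0.16 (adjusted p = 0.756, limma) was 0.0047. Psmb10, β2i, read 5.37, 6.20 and 6.12 with ADP, against 5.64, 5.67 and 6.41 in controls.

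For Psmb10 all 3 arrays of slide 2 were high and all 3 of slide 1 low, whatever the group. Its difference over all arrays was -0.01 ± 0.30 (adjusted p = 0.996, limma), but it was -0.29 within slide 1 and -0.24 within slide 2. With the slide as a block the difference was -0.26 (adjusted p = 0.110), and with trended and robust variances added the adjusted p was 0.0300. The blocked difference was -0.05 for Psmb8 and -0.26 for Psmb9, and the blocked median of the 3 genes was -0.26.

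**Figure D2:**
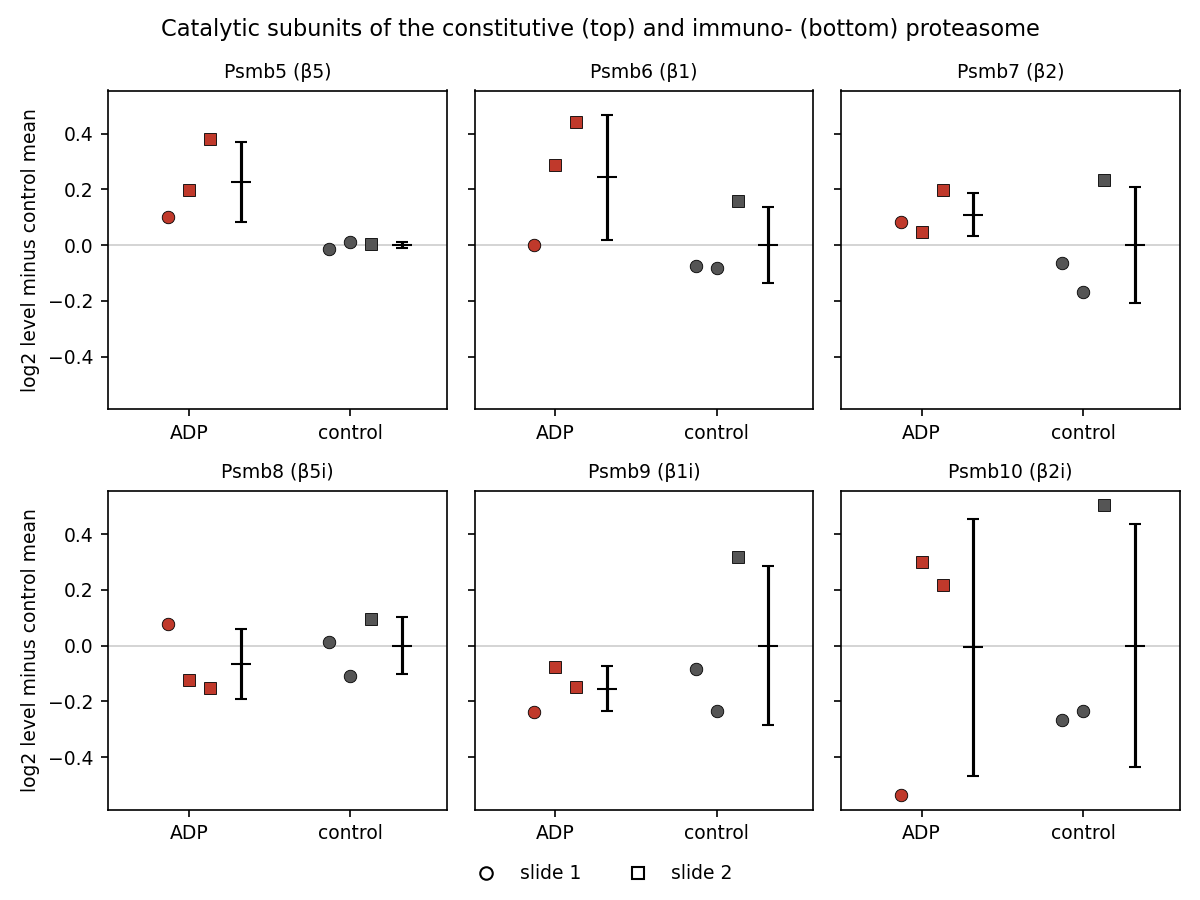
Each point is the log2 level on an array minus the control mean of that gene, with ADP to the left of control, circles for slide 1 and squares for slide 2. Bars are mean ± SD of 3 arrays. The 3 ADP points of Psmb5 lie above all control points. The points of Psmb10 separate by slide, and within each slide its ADP points lie below its control points.

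Taken per array as the mean of Psmb8, Psmb9 and Psmb10 minus the mean of Psmb5, Psmb6 and Psmb7, relative to the control average, the balance of the catalytic subunits was -0.29, -0.14 and -0.37 on ADP arrays 1 to 3. It was -0.06, -0.11 and 0.17 on control arrays 1 to 3. All 3 ADP arrays lay below all 3 control arrays, though ADP 2 and control 2 differed by little. The difference was -0.27 (SD 0.11 with ADP and 0.15 in controls), with -0.21 within slide 1 and -0.43 within slide 2. It is a description of these 6 genes, without a test. Without control 3 it was -0.18.

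Psmb8 and Psmb9 lie next to each other in the MHC region of chromosome 17, on either side of Tap1, a subunit of the transporter that carries proteasome-made peptides into the endoplasmic reticulum. On RefSeq assembly GRCm38.p6, Psmb9 spans chr17:34182030-34187330, Tap1 spans chr17:34187556-34197225 and Psmb8 spans chr17:34198195-34201454, with 225 bases between Psmb9 and Tap1 and 969 between Tap1 and Psmb8. Tap1 read 0.80, 0.52 and 0.11 with ADP, against 0.94, 0.87 and 0.84 in controls. All ADP arrays lay below the controls, and ADP 3 lay lowest. The difference was -0.41 ± 0.18 (SE, adjusted p = 0.433, limma), with -0.10 and -0.53 within slides 1 and 2.

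The other core subunits form the rings around the cutting sites. Of the 4 structural beta genes, 2 were above 0, with a median of 0.04. Psmb3, β3, read 6.11, 6.16 and 6.20 with ADP, against 6.06, 6.06 and 6.08 in controls. The groups did not overlap, but the difference was 0.09 ± 0.09 (adjusted p = 0.744, limma), and it was 0.0029 under quantile normalization and 0.17 in the unscaled value table. Psmb4, β7, read 6.45, 6.58 and 6.63 with ADP, against 6.18, 6.08 and 6.63 in controls, where control 3 was level with the highest ADP array. Its difference of 0.25 ± 0.17 (adjusted p = 0.613, limma) was 0.32 within slide 1 and -0.03 within slide 2. Psmb1 and Psmb2 differed by -0.02 each.

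Of the 7 alpha ring genes measured, which form the gate of the core, 6 were above 0. Their differences ran from -0.05 (Psma4) to 0.12 (Psma6), with a median of 0.04. Psma1, α6, read 6.01, 5.73 and 5.84 with ADP, against 5.80, 5.82 and 5.64 in controls, a difference of 0.11 ± 0.12 (adjusted p = 0.762, limma). Psma6, α1, read 4.78, 5.06 and 4.998 with ADP, against 4.73, 4.64 and 5.12 in controls, a difference of 0.12 ± 0.16 (adjusted p = 0.809, limma). For both genes the groups overlapped. Over the 14 constitutive core genes measured (alpha ring, structural beta and constitutive catalytic), 11 were above 0 and the median was 0.07, with 0.07 within slide 1, -0.02 within slide 2 and 0.0023 under quantile normalization.

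Of the 17 cap genes, 15 were above 0, with a median of 0.11 and none called. All 6 ATPases, which unfold the substrate, were above 0, from 0.05 (Psmc6) to 0.31 (Psmc5), with a median of 0.13. Psmc1, Rpt2, read 6.87, 6.91 and 7.05 with ADP, against 6.75, 6.78 and 6.82 in controls. The groups did not overlap, and the difference was 0.16 ± 0.10 (adjusted p = 0.585, limma), with 0.11 and 0.16 within slides 1 and 2, 0.04 under quantile normalization and 0.24 in the unscaled value table. A second Psmc1 probe differed by 0.26 ± 0.29, and there the groups overlapped. Psmc5, Rpt6, read 4.59, 4.57 and 4.91 with ADP, against 4.26, 4.14 and 4.75 in controls. Control 3 lay between the ADP arrays, the difference was 0.31 ± 0.19 (adjusted p = 0.593, limma), and within slides 1 and 2 it was 0.40 and -0.01.

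Of the 11 non-ATPase cap genes, which include ubiquitin receptors and the deubiquitinase Rpn11, 9 were above 0 and the median was 0.05. Psmd11, Rpn6, a scaffold subunit of the cap's lid, read 2.56, 2.71 and 2.74 with ADP, against 2.50, 2.36 and 2.53 in controls. The lowest ADP array lay just above the highest control, and the difference was 0.21 ± 0.11 (adjusted p = 0.512, limma). Psmd13, Rpn9, read 4.76, 4.44 and 4.70 with ADP, against 4.52, 4.38 and 4.44 in controls, a difference of 0.19 ± 0.12 (adjusted p = 0.609, limma). Here control 1 lay above ADP 2. The ubiquitin receptor gene Psmd4 differed by 0.13, and Psmd14, the deubiquitinase Rpn11, by -0.03. Over the 17 cap genes the median was 0.11 within slide 1 and 0.02 within slide 2.

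Dedicated chaperones assemble the particle. The 3 for the cap were all above 0, from 0.05 (Psmd9) to 0.24 (Psmd10). Psmd10, known as gankyrin, read 3.41, 3.16 and 3.17 with ADP, against 3.01, 3.08 and 2.93 in controls, and the groups did not overlap. The difference was 0.24 ± 0.12 (adjusted p = 0.472, limma), with 0.36 and 0.23 within slides 1 and 2. A slide block put the difference at 0.30, with an adjusted p of 0.0991 that was 0.0401 under trended and robust variances. With the mean of the gene's probes in place of this probe, the difference was 0.08. A second Psmd10 probe read 1.36, 1.58 and 1.54 with ADP, against 1.56, 1.68 and 1.49 in controls, a difference of -0.09 ± 0.12, so the 2 probes gave opposite signs. The probe with the positive difference spans 2897 bases of the genome (chrX:137483840-137486736, mm9, minus strand), more than its own length, so that it is split on the genome, while the other lies within 60 bases (chrX:137482968-137483027). The first is shown because the count of this gene among those without overlap rests on it, and nothing in it is marked.
Psmd10 probe: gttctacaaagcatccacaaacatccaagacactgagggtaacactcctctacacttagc
Psmd5, another cap chaperone gene, read 2.42, 2.44 and 2.52 with ADP, against 2.33, 2.27 and 2.52 in controls, a difference of 0.09 ± 0.11 (adjusted p = 0.785, limma).

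Chaperones of the core help to form the alpha ring. Psmg1 read 3.00, 3.23 and 3.07 with ADP, against 3.26, 3.25 and 3.30 in controls, all ADP arrays lying below the controls. The difference was -0.17 ± 0.11 (adjusted p = 0.577, limma), with -0.26 and -0.16 within slides 1 and 2. A second Psmg1 probe differed by -0.09 ± 0.15, and there the groups overlapped. The binding partner gene of Psmg1, Psmg2, differed by 0.06 and Psmg3 by 0.02 over all arrays, yet both were lower within each slide, as was Psmg1. Psmg4 read 1.76, 2.21 and 2.24 with ADP, against 1.85, 1.90 and 2.10 in controls, with the groups overlapping and a difference of 0.12 ± 0.16 (adjusted p = 0.800, limma). The median of the 4 genes was 0.04 over all arrays and -0.08 with the slide as a block.

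Among the activators, Psme1 and Psme2 encode the interferon-inducible pair PA28α and PA28β. Psme1 read 5.51, 5.31 and 5.45 with ADP, against 5.60, 5.53 and 5.65 in controls. All ADP arrays lay below all controls, and the difference was -0.18 ± 0.11 (adjusted p = 0.569, limma), with -0.06 and -0.28 within slides 1 and 2. Its probe is spotted 10 times on each array, and the SD among these spots was 0.01 to 0.05, smaller than the SD between arrays of a group, 0.10 with ADP and 0.06 in controls. Psme2, its neighbour 5912 bases away on chromosome 14 (GRCm38.p6), read 6.53, 6.96 and 6.89 with ADP, against 6.67, 6.68 and 6.79 in controls, a difference of 0.08 ± 0.14 (adjusted p = 0.845, limma). ADP 1 was the lowest of the 6 arrays and ADP 2 the highest. The other 2 Psme2 probes differed by -0.0045 and -0.22, the last of them listed with a genome span of 219297 bases, so what it reads is uncertain.

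Psme3, the nuclear activator PA28γ, read 5.24, 3.81 and 4.13 with ADP, against 4.29, 4.24 and 3.50 in controls. ADP 1 stood well above the other arrays, and without it the difference of 0.38 ± 0.41 (adjusted p = 0.760, limma) was -0.04. The arrays of slide 1 were higher than those of slide 2, and within slides 1 and 2 the difference was 0.97 and 0.47. With the slide as a block it was 0.72 (adjusted p = 0.0783), and 0.0220 was the adjusted p with trended and robust variances. Psme4, PA200, differed by 0.15 over all arrays and by 0.25 and 0.40 within slides 1 and 2. The inhibitor gene Psmf1, PI31, read 0.88, 0.51 and 0.62 with ADP, against 0.57, 0.55 and 0.50 in controls, a difference of 0.13 ± 0.13 (adjusted p = 0.739, limma) that was 0.02 without ADP 1.

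The spread between arrays was also set against slide and group, each taken alone, so that the shares overlap because slides and groups are partly confounded. For 35 of the 46 genes (76.1%) more of the spread lay between the slides than between the groups, as for 59.1% of all features. The median share was 71.4% for the slides and 12.6% for the groups, against 34.8% and 18.9% over all features. The median absolute difference was 0.18 between slides and 0.10 between groups, against 0.20 and 0.16 over all features. Taken within slides, the median of the 46 was 0.08 on slide 1 and -0.02 on slide 2. Both slides gave a positive difference for 18 genes, where 29.7% of all features were higher within both, and a negative one for 9, where 32.4% were lower within both. As a share, 39.1% of the proteasome genes were higher within both slides and 19.6% were lower. Cap genes made up 9 of the 18 and none of the 9. The 9 lower ones were Psmb2, Psmb9, Psmb10, Psma7, Psmd9, Psme1, Psmg1, Psmg2 and Psmg3.

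**Figure D3:**
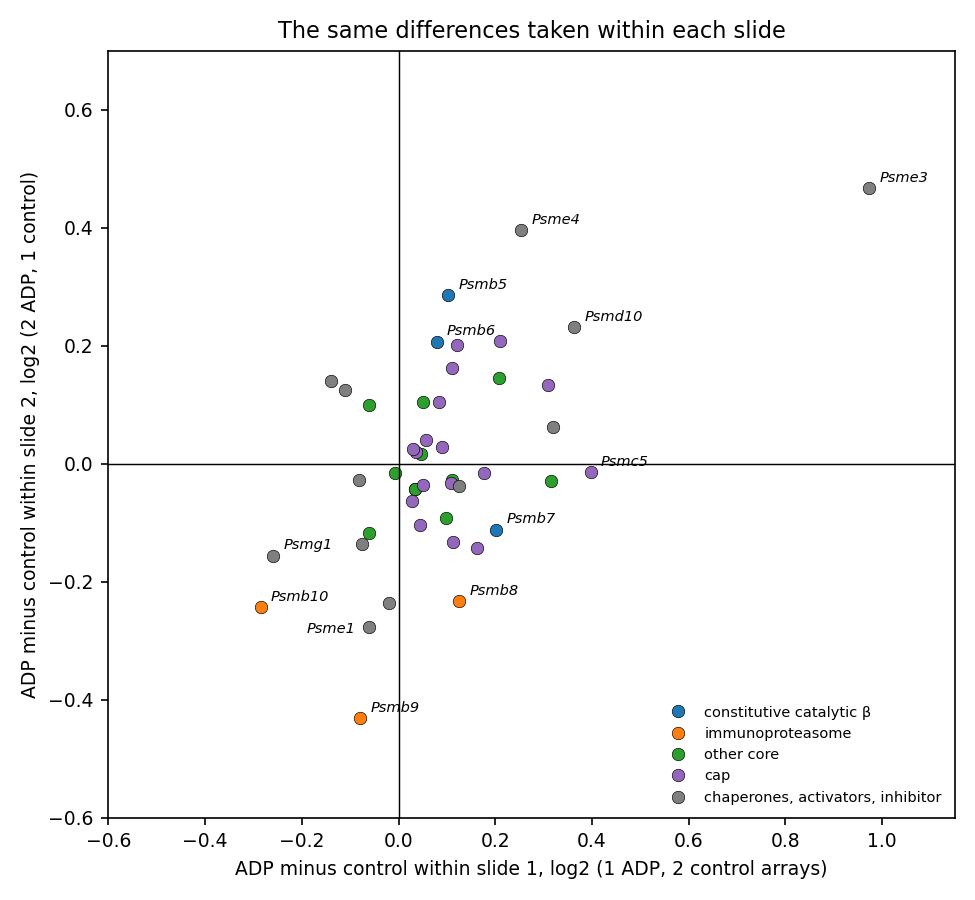
Each point is a proteasome gene, with its log2 difference (ADP minus control) within slide 1 on the horizontal axis and within slide 2 on the vertical axis, coloured by role. Psme3 stands apart at 0.97 and 0.47, Psmb9 and Psmb10 lie at the lower left, and all 17 cap genes lie right of 0, with 8 of them below 0 on slide 2.

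Under a slide block, with variances handled as without it, no proteasome gene passed, the smallest adjusted p being 0.0783 (limma), and 4 genes were higher at an unadjusted p under 0.05, where 10.8% of all features were, and 1 was lower, where 13.6% were. With trended and robust variances in addition, limma called 2 higher with ADP (Psme3 and Psmd10), where 4.52% of all features were called higher, and 1 lower (Psmb10), where 5.38% of all features were called lower. These shares of the 46 genes are at or below those of the array.

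Letters of known motifs were also searched, on both strands, in the 250 bases before each RefSeq start (GRCm38.p6). Of the 46 genes, 39 had an entry. The core of the antioxidant response element, TGACNNNGC, bound by the NRF factors that drive proteasome genes, was found for 5 of the 39 (12.8%), among them Psmb5 and Psmb6, and for 11.5% of all 27025 genes. The CCAAT box was found for 13 genes (33.3%), and for 37.5% of all. The core of the interferon-stimulated response element, GAAANNGAA, was found for 3 (7.69%), and for 8.18% of all, and those 3 were Psmb3, Psmd4 and Psmd9. The core of the gamma-activated site, TTCNNNGAA, was found for Psmb8 and Psmg1 (5.13%), and for 8.13% of all. A match describes letters and not a bound site.

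Below are 60 bases of 3 promoters with a match, 5′ to 3′ on the strand of the gene and with the motif in capitals. Psmb5 and Psmb8 are shown as the constitutive and the interferon-inducible form of the same subunit, and Psmb3 as the constitutive core gene without overlap between groups that holds the interferon motif. Positions are chr14:54618008-54618067 for Psmb5, chr17:34198073-34198132 for Psmb8 and chr11:97703247-97703306 for Psmb3, all GRCm38.p6, and none of these motifs overlaps another one searched.
Psmb5, antioxidant response element core: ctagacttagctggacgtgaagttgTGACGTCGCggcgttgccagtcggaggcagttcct
Psmb8, gamma-activated site core: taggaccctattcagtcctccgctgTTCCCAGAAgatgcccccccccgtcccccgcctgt
Psmb3, interferon-stimulated response element core: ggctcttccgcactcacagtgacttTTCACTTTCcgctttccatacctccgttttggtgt
The differences were 0.23 for Psmb5, -0.07 for Psmb8 and 0.09 for Psmb3, and no link between motif and difference was tested.

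Genes around the proteasome were read as lists. Of 6 genes for core maturation and for transcription of proteasome genes, 3 were above 0 and none passed. Nfe2l1, the factor that raises proteasome gene transcription when the proteasome is short, read 0.08, 0.15 and 0.21 with ADP, against -0.11, -0.07 and -0.12 in controls. The groups did not overlap, and the difference was 0.25 ± 0.10 (adjusted p = 0.363, limma), with 0.17 and 0.30 within slides 1 and 2. Ngly1, the glycanase that activates it, differed by -0.20 ± 0.14 (adjusted p = 0.653, limma).

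Of 7 factors that drive interferon-responsive and class I genes, 5 had ADP arrays all below the controls and 1, Irf7, all above, where 9.72% of all features lay below and 9.67% above, and none passed. With the slide as a block and trended and robust variances, 3 of the 7 passed as lower (Nlrc5, Stat2 and Irf1), where 5.38% of all features did. The median of the 7 was -0.17. Nlrc5, the activator of MHC class I genes and of Psmb9 and Tap1, read 2.21, 2.62 and 2.25 with ADP, against 2.84, 2.87 and 2.87 in controls, a difference of -0.50 ± 0.14 (adjusted p = 0.273, limma). Stat2 read 4.84, 4.87 and 4.89 with ADP, against 5.22, 5.15 and 5.32 in controls, a difference of -0.36 ± 0.10 (adjusted p = 0.273, limma). Both genes separated the groups clearly over all arrays, which Psmb8, Psmb9 and Psmb10 did not. Within each slide, the ADP arrays of Psmb9 and Psmb10 lay below the controls, while those of Psmb8 did so on slide 2 only. With the slide as a block Psmb10 differed by -0.26, with an adjusted p of 0.0300 under trended and robust variances (limma). Whether the 7 factors had a part in the values of the immunoproteasome genes was not tested.

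**Figure D4:**
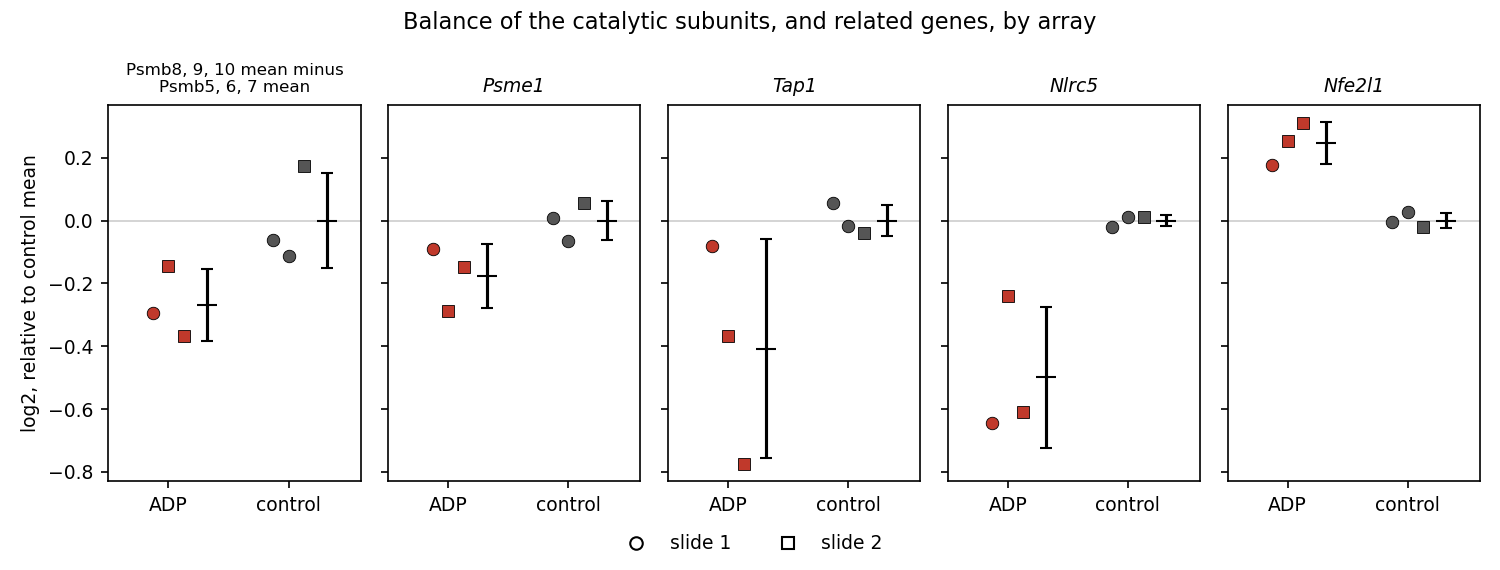
Each point is an array, ADP to the left of control, with circles for slide 1 and squares for slide 2, and bars are mean ± SD of 3 arrays. The left panel is the immunoproteasome mean minus the constitutive catalytic mean, and the others are log2 levels, all relative to the control average. In all 5 panels the ADP arrays lie on a single side of the controls, above them for Nfe2l1 and below them elsewhere. The genes shown are ones whose groups did not overlap, as was so for 19.4% of all features. Related genes not shown include Psme2, Tap2 and B2m, whose groups overlapped, and Irf7, whose ADP arrays lay above the controls.

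Peptide loading genes of MHC class I had 6 of 11 members above 0 and a median of 0.01, none passing. Beside Tap1 the smallest p was that of B2m, the light chain of class I, at 0.24 ± 0.23 (adjusted p = 0.731, limma), which was 0.02 and 0.10 within slides 1 and 2. Of 7 other cap subunits and cap-bound enzymes 5 were above 0, none passing, and the smallest p were those of the ubiquitin ligase gene Ube3c, at -0.17 ± 0.10, and the deubiquitinase gene Uchl5, at -0.16 ± 0.15. Of 6 ubiquitin genes and activating enzymes 5 were above 0, with 0.07 ± 0.11 for Uba6. Of 11 shuttle and unfoldase factors 6 were above 0, and the shuttle gene Rad23b differed by -0.20 ± 0.13. The adjusted p in limma was at least 0.549 for these last 3 lists.

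The remaining genes of the name rule were Psmb11, the thymus-specific β5t, and Psma8, the testis-specific α4s, and each was not well above background on any of the 6 arrays. Psmc3ip, the recombination gene, read -1.49, -1.67 and -1.74 with ADP, against -1.16, -1.51 and -1.20 in controls. Control 2 lay within the range of the ADP arrays, and the difference was -0.34 ± 0.14 (unadjusted p = 0.0446 and adjusted p = 0.380, limma).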

How the data were processed

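RNA of 6 mouse macrophage samples was measured on one-colour Agilent arrays. The deposited spot intensities came, per the file headers and the submitters' processing notes, from Agilent Feature Extraction 10.7.1.1, which subtracts background within an array and leaves arrays unscaled. The deposited value table held the same intensities, within 0.001 log2 for 100% of probes when spots marked as outliers were handled as described next.

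Here, control spots were left out. Outlier spots were left out only where the same probe had a spot without that mark, so a probe with outlier spots alone kept them. Each array's processed signals were divided by the 75th percentile of all its non-control spots, outliers included, and put on a log2 scale. The spots of a probe were then averaged. The probe with the highest average stood for its gene. Probe positions are on build mm9, per the file headers, and promoters and gene positions come from RefSeq on GRCm38.p6, and the builds were not mixed. Names were updated by accession for 26582 of 55681 probes, by symbol for 2602 and by synonym for 492. Location of probes in exons was not analysed here.

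Groups were compared over 19575 features with limma 3.58.1 (R 4.3.3) in a two-sided fit that held no block, with Benjamini-Hochberg adjustment. The fit was tested on simulated data. A permutation of 3 against 3 arrays cannot go below p = 0.1, and lists got no test. The members, gene lists and settings were chosen with earlier results of these data known. Per-array values are given for Psmb5 to Psmb10, Psme1, Psme2, the 2 members of each role with the smallest p and members whose groups do not overlap, and from each other list the 2 genes with the smallest p, of which some are not reported here. Other named genes were chosen after their values were seen. Where samples share only a replicate number they were not treated as pairs. The correlations of same-numbered samples' deviations were 0.42, -0.40 and 0.43. ADP and control samples on the same slide correlated at 0.42 to 0.47, and those on different slides negatively. These values therefore cannot show whether replicate numbers mark shared donors. Alternatives were normexp correction with an offset of 50, quantile or median scaling, the value table, other filters and probe rules, other variance models, slide and replicate blocks, each slide alone and each array left out.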

Additional observations from a re-analysis of the deposited data

How the results depend on the processing

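The count of proteasome genes called was 0 in each setting run except the slide block with trended and robust variances, which called 3. The count of genes whose groups did not overlap was 7 (19.4% of all features), and it was 4 with quantile normalization (19.9%), 2 with median scaling (15.5%), 2 in the unscaled value table (13.2%), 4 with the mean of a gene's probes (20.1%), and 7 to 21 with an array left out, the highest without control 3 (37.0%) and the next, 15, without ADP 1 (37.8%), since fewer arrays separate more often. The median of the constitutive core genes was 0.0023 with quantile normalization, 0.15 in the value table, 0.036 with the slide block, with or without trended and robust variances, -0.021 within slide 2 alone, and 0.039 to 0.10 with an array left out. The median of all 46 genes was -0.015 within slide 2. The immunoproteasome median was -0.26 with the slide block, under both variance models, and -0.24 within slide 2, and it was 0.01 in the value table and 0.0047 without control 3. Immunoproteasome minus constitutive catalytic ran from -0.43 within slide 2 to -0.18 without control 3, and the cap median from 0.02 within slide 2 to 0.18 in the value table. Scaling by the median cannot move the immunoproteasome balance, and variance models and the replicate block move neither value. The cause of these shifts was not tested. With a replicate block 0 genes were called and the median of all 46 stayed at 0.08. Of the named genes, Psme3, Psmd10 and Psmb10 passed under the slide block with trended and robust variances. Signs turned in 19 of 437 single-gene values and 4 of 100 list values, all uncalled. The median standard error of the 46 genes was 0.12 without and 0.08 with the slide block.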
